A study of Mus musculus with 2 samples.

Results

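The cell cycle and DNA replication genes of the mouse adrenal gland described here are 44 genes of 55536 annotated genes. They were chosen by name, from knowledge of what they do, with earlier results of these data known. All 44 symbols were matched to a gene identifier through the transcript identifiers in the tables. A dividing cell passes the G1 checkpoint when D-type cyclins with the kinases CDK4 and CDK6 phosphorylate the retinoblastoma protein, which releases E2F factors to switch on genes for S phase. Origins loaded with the MCM helicase then fire, PCNA clamps the polymerases to the template, and cyclin B with CDK1 drives mitosis. In the adrenal cortex, cells are renewed from progenitors near the capsule and move inward, while the adult gland holds few dividing cells at any time.

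The libraries were total RNA-seq of adrenal glands from female mice aged 36 days, of the strain B6CASTF1/J, the first-generation cross of C57BL/6J and CAST/EiJ. The group held 2 libraries, replicate 2 and replicate 1, each made with a directional kit from 300 ng of input depleted of ribosomal RNA, to which ERCC spike-ins (control RNAs) were added. The labels give no treatment and no engineered allele. The characteristics number the mice 04 and 03, whereas the library descriptions give 03 for both and the donor identifier is shared, so an SD here may measure only technical spread. With 1 group there was no comparison of conditions. The gene tables held 38701794 expected counts in replicate 2 and 35684781 in replicate 1. Values are TPM, a measure scaled to transcript length and to the library total that can be compared between genes, and SDs are over the 2 libraries.

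Markers of the labelled tissue were present, and 7 of 7 cortex genes were detected at 1 TPM or more in both libraries, led by Hsd3b1, a steroid dehydrogenase, at 5237 TPM in replicate 2 against 4739 TPM in replicate 1. Markers of fat were high in both libraries, where the 6 adipocyte and brown fat markers summed to 1883 TPM in replicate 2 against 1899 TPM in replicate 1. The libraries stood apart in RNA of skeletal muscle and liver. The 8 skeletal muscle markers summed to 2.51 TPM in replicate 2 against 318 TPM in replicate 1, and the 6 liver markers to 1.64 TPM in replicate 2 against 31.0 TPM in replicate 1. Acta1, the skeletal actin, was at 1.11 TPM in replicate 2 against 97.6 TPM in replicate 1, and Alb, serum albumin, at 1.34 TPM in replicate 2 against 22.7 TPM in replicate 1. In bulk tissue, fewer cells of a type and less RNA per cell cannot be told apart.

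The D-type cyclins and Cdk4 had the highest levels of the 44 genes in the gene table, with Pcna next. By gene sums derived from the reads, described further on, Pcna at 71.2 TPM in replicate 2 against 69.1 TPM in replicate 1 was above Ccnd1 at 64.4 TPM in replicate 2 against 56.8 TPM in replicate 1. Summed over the 44 genes the level was 540 TPM in replicate 2 against 526 TPM in replicate 1, and the 3 D-type cyclins held 51.6% of it in replicate 2 and 53.6% in replicate 1. In both libraries 39 of the 44 genes (88.6%) reached 1 TPM, against 11662 of 22015 nuclear protein-coding genes (53.0%). The median over all 44 genes, detected or not, was 2.75 TPM, whereas the median of the protein-coding genes that were detected was 10.3 TPM. Of the 39 detected members, 8 lay above that median of detected genes. On mean level 2 genes stood at 100 TPM or more, 8 at 10 TPM or more, 23 under 3 TPM and 4 under 1 TPM. By role, the median level was 21.4 TPM for G1 cyclins and kinases and 11.3 TPM for inhibitors and pocket proteins. It was 6.43 TPM for nucleotide supply, 6.19 TPM for licensing and fork genes, 1.98 TPM for the cyclins and kinase of S and M phase, 1.77 TPM for transcription factors and 1.51 TPM for mitosis genes.

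**Figure D1:**
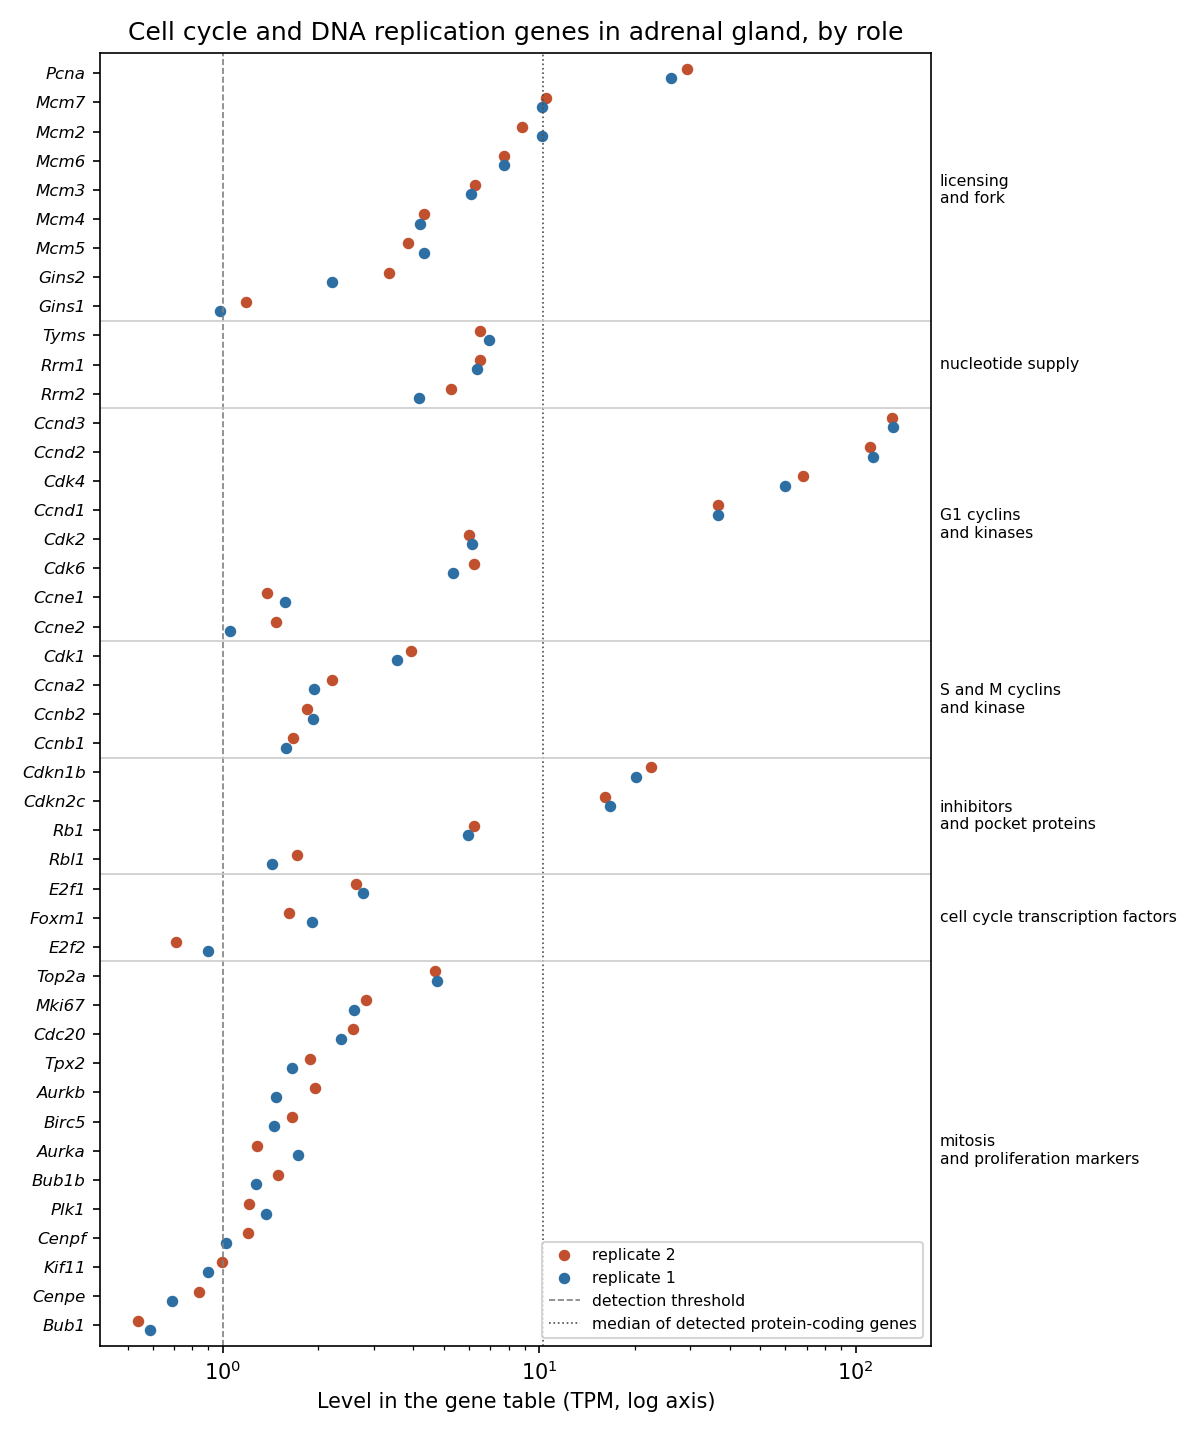
Level of each of the 44 genes (TPM, log axis) in replicate 2 (red) and replicate 1 (blue), grouped by role and ordered by mean level within a role. The dashed line marks 1 TPM and the dotted line the median of detected protein-coding genes, 10.3 TPM. The D cyclins, Cdk4, Pcna, Cdkn1b and Cdkn2c lie to the right of the dotted line in both libraries, whereas every S and M cyclin, transcription factor and mitosis gene lies to its left.

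Promoter sequence was at hand for 33 of the 44 genes, in 37 windows of the 250 bases before a RefSeq start (GRCm38.p6). Ccnd1, Ccnd2, Ccne2, Ccna2, Aurkb, Tpx2, Foxm1, Rb1, Mcm4, Gins1 and Gins2 were not among them. Both strands were searched for 3 motifs that are textbook elements of cell cycle promoters, and overlapping matches were each counted. The E2F motif was TTTCCCGC, TTTCGCGC, TTTGCCGC or TTTGGCGC, the binding site of the E2F family. The cell cycle homology region (CHR), bound by the MuvB complex, was TTTGAA or TTTAAA, and the third motif was CCAAT, the site of NF-Y. An E2F match was present in 16.2% of the members' windows and 1.86% of all 32851 promoter windows. A CHR match was present in 40.5% of the members' windows and 25.2% of all windows, and CCAAT in 73.0% of the members' windows and 33.85% of all windows. CCAAT was the most frequent of the 3 motifs in each group of roles. Of the 10 windows of replication and nucleotide genes, 30% held E2F, 20% CHR and 90% CCAAT. Of the 14 windows of S and M cyclins, their kinase and mitosis genes, 7.14% held E2F, 71.4% CHR and 92.9% CCAAT. In the 13 windows of the other members the shares were 15.4%, 23.1% and 38.5%. A match is a run of letters and not a measured site.

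Promoters with matches are shown for 4 genes, 1 of a licensing gene with E2F matches and 3 of S to M phase genes with CHR matches. Each is the stretch before the RefSeq start, cut for Cdk1 where the GENCODE gene begins, on the minus strand of GRCm38.p6 and written 5′ to 3′ along the gene, with matches in capitals. They lie at chr1:128359706-128359955 (Mcm6), chr10:69352939-69353162 (Cdk1), chr9:70421555-70421804 (Ccnb2) and chr11:99024190-99024439 (Top2a).
Mcm6: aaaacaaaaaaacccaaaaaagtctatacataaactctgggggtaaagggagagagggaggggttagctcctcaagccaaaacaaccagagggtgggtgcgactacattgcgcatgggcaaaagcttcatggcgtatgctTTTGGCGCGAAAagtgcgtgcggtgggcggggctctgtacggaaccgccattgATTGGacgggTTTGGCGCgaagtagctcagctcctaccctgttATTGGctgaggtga
Cdk1: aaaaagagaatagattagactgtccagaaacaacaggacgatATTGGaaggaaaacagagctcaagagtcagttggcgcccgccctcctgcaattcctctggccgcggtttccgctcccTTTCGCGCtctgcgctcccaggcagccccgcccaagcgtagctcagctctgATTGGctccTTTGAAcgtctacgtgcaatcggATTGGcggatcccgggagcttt
Ccnb2: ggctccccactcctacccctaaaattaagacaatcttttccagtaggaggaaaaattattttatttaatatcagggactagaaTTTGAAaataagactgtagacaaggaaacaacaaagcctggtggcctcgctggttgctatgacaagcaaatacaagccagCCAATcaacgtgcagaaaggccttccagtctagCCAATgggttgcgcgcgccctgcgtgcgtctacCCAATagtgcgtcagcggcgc
Top2a: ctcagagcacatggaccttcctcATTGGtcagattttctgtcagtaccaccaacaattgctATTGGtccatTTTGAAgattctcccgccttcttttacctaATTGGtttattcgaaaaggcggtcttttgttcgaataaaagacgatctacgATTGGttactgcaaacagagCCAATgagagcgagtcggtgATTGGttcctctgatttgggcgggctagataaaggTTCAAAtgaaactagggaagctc
In Mcm6 the E2F matches begin at -110, -106 and -47 from the start, the first pair overlapping, and CCAAT in reverse at -57 and -14. Cdk1 alone of the printed stretches holds all 3 motifs, with E2F at -131, CHR at -71 and reverse CCAAT at -208, -80 and -48. Ccnb2 has CCAAT at -87, -54 and -21, at equal spacing, and a CHR match at -167. Top2a has CHR matches at -179 and -23 and 6 CCAAT matches.

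Of the 9 licensing and fork genes 8 were detected in both libraries, and the mean levels of the 9 ran from 1.08 TPM for Gins1 to 27.7 TPM for Pcna. Pcna, the sliding clamp, was the highest, at 29.3 TPM in replicate 2 against 26.1 TPM in replicate 1 (27.7 ± 2.29). The 6 MCM genes encode the ring of the replicative helicase, whose subunits assemble in equal numbers. Mcm7 was at 10.5 TPM in replicate 2 against 10.2 TPM in replicate 1, and Mcm2 at 8.79 TPM in replicate 2 against 10.2 TPM in replicate 1. Mcm6, with the E2F matches shown above, held 7.71 TPM in replicate 2 against 7.74 TPM in replicate 1. All 3 were below Pcna in both libraries. Mcm3 stood at 6.28 TPM in replicate 2 against 6.10 TPM in replicate 1. The lowest of the ring were Mcm4, at 4.31 TPM in replicate 2 against 4.19 TPM in replicate 1, and Mcm5, at 3.85 TPM in replicate 2 against 4.33 TPM in replicate 1. The highest MCM gene was thus 2.72 times the lowest in replicate 2 and 2.43 times in replicate 1, and the order of Mcm7 over Mcm2, and of Mcm4 over Mcm5, was not the same in both libraries. The GINS complex joins MCM and CDC45 in the active helicase. Of its subunits, Gins1 and Gins2 were lower than each MCM gene in both libraries. Outside the 9 genes, Gins3 was also lower, at 0.88 TPM in replicate 2 against 0.68 TPM in replicate 1. Gins4 was not, at 10.6 TPM in replicate 2 against 10.1 TPM in replicate 1, close to Mcm7. Gins2 had 3.35 TPM in replicate 2 against 2.22 TPM in replicate 1, from 98 and 67 counts, and Gins1 had 1.18 TPM in replicate 2 against 0.98 TPM in replicate 1, from 45 and 35 counts.

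Genes of nucleotide supply lay at the level of the helicase. Tyms, thymidylate synthase, stood at 6.48 TPM in replicate 2 against 6.92 TPM in replicate 1. Rrm1, the large subunit of ribonucleotide reductase, was at 6.51 TPM in replicate 2 against 6.35 TPM in replicate 1, and Rrm2, its small subunit, at 5.27 TPM in replicate 2 against 4.17 TPM in replicate 1. Rrm1 was 1.24 times Rrm2 in replicate 2 and 1.52 times in replicate 1. Rrm2 is the subunit whose protein is limited to S phase. Its gene sum was the lowest of the 3 in both libraries. By coding transcripts derived from alignments Tyms was lower, at 2.02 TPM in replicate 2 against 0.75 TPM in replicate 1. Those of Rrm2 held 5.17 TPM in replicate 2 against 4.05 TPM in replicate 1. When derived from the reads, the coding transcripts of Tyms held 5.48 TPM in replicate 2 against 6.64 TPM in replicate 1. Those of Rrm2 then held 8.84 TPM in replicate 2 against 7.18 TPM in replicate 1.

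Among the G1 genes the order of the D cyclins was the same in both libraries. Ccnd3 had 130.5 TPM in replicate 2 against 132 TPM in replicate 1 (131 ± 0.813), Ccnd2 had 111 TPM in replicate 2 against 113 TPM in replicate 1 (112 ± 1.36), and Ccnd1 had 36.6 TPM in replicate 2 against 36.8 TPM in replicate 1. Of the D cyclin sum, Ccnd3 held 46.9% in replicate 2 and 46.7% in replicate 1, Ccnd2 40.0% and 40.2%, and Ccnd1 13.2% and 13.1%. The gaps between the 3 genes were larger than the spread of each over the libraries. Ccnd3 ranked 359th and Ccnd2 443rd among protein-coding genes. Of the partner kinases, Cdk4 stood at 68.2 TPM in replicate 2 against 60.0 TPM in replicate 1, and Cdk6 at 6.21 TPM in replicate 2 against 5.33 TPM in replicate 1, so Cdk4 was 11.0 times Cdk6 in replicate 2 and 11.3 times in replicate 1. Over protein-coding transcripts alone the ratio was 4.01 in replicate 2 and 2.76 in replicate 1. Cdk2, the kinase of cyclins E and A, had 5.99 TPM in replicate 2 against 6.13 TPM in replicate 1, within the range of Cdk6. The E cyclins, which act at entry into S phase, were near the detection level. Ccne1 had 1.38 TPM in replicate 2 against 1.57 TPM in replicate 1, and Ccne2 had 1.47 TPM in replicate 2 against 1.05 TPM in replicate 1, so their order was not the same in the libraries.

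The later cyclins were of the same low order as the E cyclins. Cdk1, the mitotic kinase, had 3.92 TPM in replicate 2 against 3.54 TPM in replicate 1. Ccna2, the cyclin of S and G2 phase, had 2.21 TPM in replicate 2 against 1.94 TPM in replicate 1. The B cyclins, which bind CDK1, were lowest, with Ccnb2 at 1.84 TPM in replicate 2 against 1.92 TPM in replicate 1 and Ccnb1 at 1.67 TPM in replicate 2 against 1.58 TPM in replicate 1. Ccnd3 was 78.1 times Ccnb1 in replicate 2 and 83.3 times in replicate 1. The order Cdk1, Ccna2, Ccnb2, Ccnb1 was shared by both libraries on gene table levels. Each cyclin rested on 99 to 217 counts per library. The deposited TPM bounds of Ccna2, Ccnb2 and Ccnb1 overlapped in both libraries, so their order is uncertain. By gene sums derived from the reads the B cyclins changed places in replicate 2, with Ccnb1 at 3.10 TPM and Ccnb2 at 3.03 TPM. Replicate 1 kept Ccnb2 first, at 3.00 TPM against 2.91 TPM for Ccnb1.

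The kinase inhibitors stood above Cdk2 and Cdk1 in both libraries. Cdkn1b, which encodes p27, an inhibitor of cyclin E and A complexes, was at 22.6 TPM in replicate 2 against 20.2 TPM in replicate 1. Cdkn2c, which encodes p18, an inhibitor of CDK4 and CDK6, was at 16.2 TPM in replicate 2 against 16.8 TPM in replicate 1. Rb1, the retinoblastoma protein gene, held 6.21 TPM in replicate 2 against 5.97 TPM in replicate 1, and its relative Rbl1, which encodes p107, held 1.72 TPM in replicate 2 against 1.43 TPM in replicate 1. Rb1 exceeded Rbl1 3.61-fold in replicate 2 and 4.17-fold in replicate 1. Of the transcription factors, E2f1, an activator of S phase genes, was at 2.63 TPM in replicate 2 against 2.77 TPM in replicate 1. Foxm1, an activator of G2 and M phase genes, was at 1.62 TPM in replicate 2 against 1.91 TPM in replicate 1. E2f2 was below 1 TPM in both, at 0.71 TPM in replicate 2 against 0.90 TPM in replicate 1. On TPM the 3 factors were each lower in replicate 2, by less than 1.5-fold. On counts Foxm1 was not lower, with 206 counts in replicate 2 and 181 in replicate 1, a ratio of library shares of 1.05 (95% counting interval 0.855 to 1.29), and log2 ratios of 0.04 with edgeR TMM scaling and with DESeq2 size factors.

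The 13 mitosis and proliferation markers ranged from 0.565 TPM to 4.73 TPM on average. Top2a, topoisomerase II alpha, which untangles sister chromatids, led them with 4.69 TPM in replicate 2 against 4.76 TPM in replicate 1. Mki67, the coat protein of mitotic chromosomes used to count dividing cells, had 2.84 TPM in replicate 2 against 2.59 TPM in replicate 1, and Cdc20, an activator of the anaphase-promoting complex, had 2.58 TPM in replicate 2 against 2.37 TPM in replicate 1. These led the group in both libraries. Over protein-coding transcripts alone Top2a had 2.69 TPM in replicate 2 against 2.70 TPM in replicate 1. That was below Mki67 in replicate 2 and above it in replicate 1. Tpx2, a spindle assembly factor, had 1.88 TPM in replicate 2 against 1.65 TPM in replicate 1. Aurkb, the kinase of the chromosomal passenger complex, had 1.95 TPM in replicate 2 against 1.47 TPM in replicate 1, and its partner Birc5, survivin, had 1.65 TPM in replicate 2 against 1.45 TPM in replicate 1. All 3 were higher in replicate 2. Aurka, the centrosomal kinase, had 1.28 TPM in replicate 2 against 1.73 TPM in replicate 1, so the order of the Aurora kinases was not the same in the libraries. Plk1, polo-like kinase, had 1.21 TPM in replicate 2 against 1.37 TPM in replicate 1. Of the spindle checkpoint genes, Bub1b had 1.49 TPM in replicate 2 against 1.27 TPM in replicate 1, and Bub1, the lowest of all 44 genes, had 0.54 TPM in replicate 2 against 0.59 TPM in replicate 1. The kinetochore genes Cenpf and Cenpe had 1.20 TPM and 0.84 TPM in replicate 2 and 1.02 TPM and 0.69 TPM in replicate 1. Kif11, the spindle motor Eg5, had 0.99 TPM in replicate 2 against 0.90 TPM in replicate 1. Gins1, E2f2, Kif11, Cenpe and Bub1 were the 5 genes that missed 1 TPM in at least 1 library.

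The libraries were then set against each other as replicate 2 over replicate 1, on the log2(TPM + 0.1) scale, among genes with 200 or more summed counts. This filter passed 36 of the 44 genes, and Gins1, Gins2, Ccne1, Ccne2, Birc5, Aurka, Bub1 and Plk1 did not pass. No p-value is possible for 2 libraries, and what follows compares these libraries and no conditions. The median log2 ratio was 0.05 over the 36 genes and 0.04 over all 12280 genes that passed. None of the 36 was 1.5-fold or more higher, against 2.08% of all genes, and none was 1.5-fold or more lower, against 1.5%. Replicate 2 was higher in 22 and lower in 14, and 61.1% higher stands beside 58.3% of all genes. The ratios ran from -0.30 for E2f2 to 0.38 for Aurkb. E2f2 alone passed 1.5-fold, lower in replicate 2, when counts were scaled with edgeR TMM or DESeq2 size factors and when gene sums were derived from the reads. With no filter the 44 genes gave 26 higher and 18 lower and again none past 1.5-fold, with Gins2 nearest at 0.57.

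Counting error was set beside these ratios through the share of the library's total count that each gene took. The exact 95% interval of the ratio of shares lay above 1 for 7 of the 36 genes, against 24% of all genes, and below 1 for 2, against 16.4%. Rrm2 had 421 counts in replicate 2 and 301 in replicate 1, a ratio of 1.29 with a lower bound of 1.11. Cdk6 had a ratio of 1.19 (interval 1.09 to 1.28), Cenpf 1.23 (1.06 to 1.42) and Cenpe 1.21 (1.002 to 1.47). Pcna, Cdk4 and Cdkn1b each had a ratio of 1.10. The interval of Cenpe reached 1 with edgeR TMM scaling, and those of Cenpe and Pcna did with read-derived gene sums. E2f2 lay below, with 109 counts in replicate 2 and 150 in replicate 1 and a ratio of 0.670 (0.519 to 0.863), and so did Ccnd2, with a ratio of 0.951 (0.930 to 0.973) on 15353 counts in replicate 2 and 14880 in replicate 1. By the TPM bounds in the deposited tables, which also cover the division of reads among transcripts, the ranges of the libraries were apart in 2 genes higher in replicate 2, Pcna and Cdkn1b, against 9.2% of all genes. No gene was apart the other way, against 5.75%. The precision follows depth, since summed counts ran from 80 for Gins1 to 30233 for Ccnd2. For Mki67, with 1011 counts in replicate 2 and 930 in replicate 1, the ratio was 1.00 (0.916 to 1.10).

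**Figure D2:**
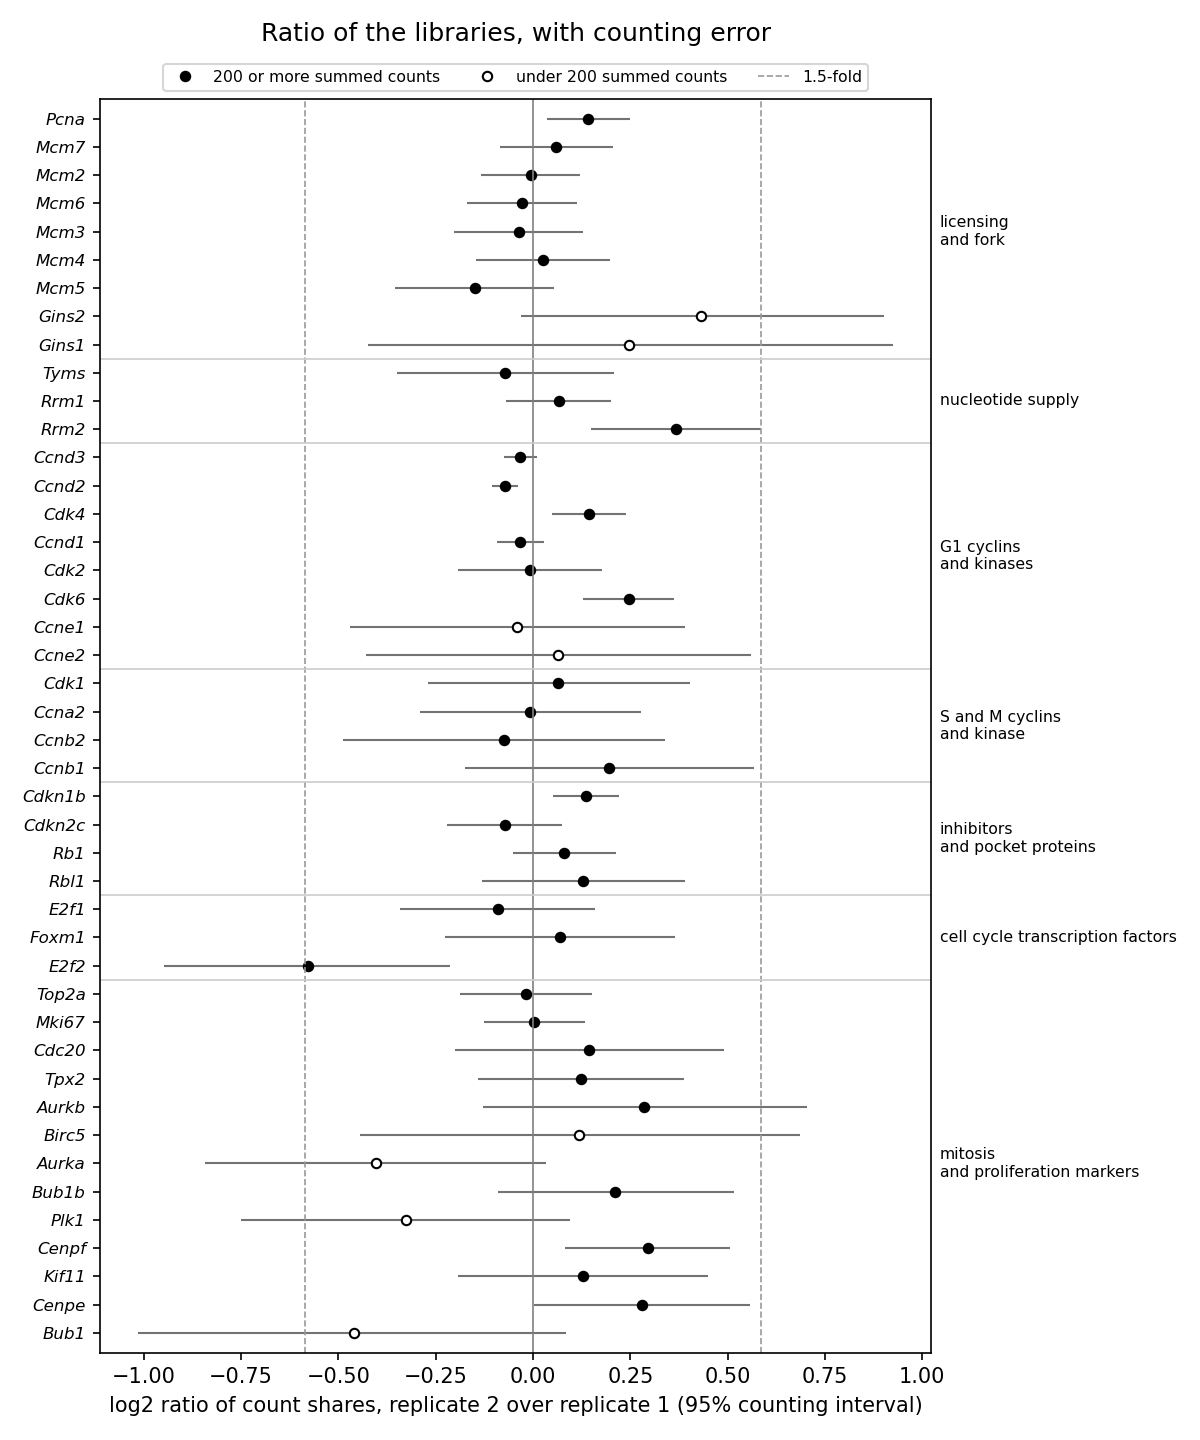
Ratio of count shares, replicate 2 over replicate 1 (log2), for the 44 genes by role, with bars for the exact 95% counting interval. Filled points have 200 or more summed counts, open points fewer, and dashed lines mark 1.5-fold. Intervals are shortest for the D cyclins and widest for genes with few counts such as Gins1 (0.745 to 1.90), and E2f2 is the filled point farthest to the left, at a ratio of 0.670.

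Several marker lists of other cell types lay further apart. All 6 chromaffin cell markers were lower in replicate 2, with a median log2 ratio of -0.41 and sums of 1116 TPM in replicate 2 against 1486 TPM in replicate 1, led by Chgb, a granule protein, at 395 TPM in replicate 2 against 560 TPM in replicate 1. Of 8 red cell markers the 6 with enough counts were lower, with sums of 1883 TPM in replicate 2 against 2392 TPM in replicate 1, led by Hba-a1, and Klf1 was listed at 0 in replicate 1. The 8 muscle markers were all lower in replicate 2, by a median log2 ratio of -6.60 (-7.66 for Tnnt3 to -5.72 for Mb), and the 2 liver markers with enough counts, Alb and Apob, by -3.98 and -3.30. The added 0.1 TPM shrinks such ratios where a level is near 0, as for Apob at 0.02 TPM in replicate 2. On counts the ratio of library shares was 0.0275 for Apob and 0.0378 for Alb. It was 0.00212 for Myh1, a muscle marker, and 0.00253 for Tnnt3. No muscle or liver marker was listed at 0. Of 8 lymphocyte markers none was detected, and the 8 summed to 0.96 TPM in replicate 2 against 0.76 TPM in replicate 1. Markers of cortical progenitors and capsule summed to 84.4 TPM in replicate 2 against 87.8 TPM in replicate 1, led by Nr2f2 at 30.2 TPM in replicate 2 against 34.8 TPM in replicate 1. The lists for endothelium (led by Plvap), macrophages (Lyz2), fibroblasts (Col3a1), glia (S100b) and fat (Fabp4) had median log2 ratios of 0.01, -0.05, -0.13, -0.02 and 0.04. The part of any of these in the ratios of the 44 genes was not tested.

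Outside the 44 genes, replication genes again stood above mitosis genes. Of 46 further replication genes 38 were detected, with a median of 3.38 TPM, led by the origin recognition genes Orc4 and Orc3, at 20.75 TPM and 17.6 TPM in replicate 2 and 18.8 TPM and 15.6 TPM in replicate 1. Rpa1, of the single-strand binding complex, followed at 17.0 TPM in replicate 2 against 15.7 TPM in replicate 1. Among the 34 with enough counts, 28 were higher in replicate 2 and 6 lower, with a median log2 ratio of 0.12, where 58.3% of all genes were higher. None passed 1.5-fold, against 2.08% of all genes higher and 1.5% lower. Of 50 further mitosis genes 29 were detected, with a median of 1.25 TPM. Bub3, Pttg1 and Smc4 led them, at 22.7, 14.5 and 10.4 TPM in replicate 2 and 24.2, 14.8 and 10.9 TPM in replicate 1. Of the 27 with enough counts, 3 (Pbk, Cks1b and Cdca3) were past 1.5-fold higher, against 2.08% of all genes, and 1 (Ccnf) past it lower, against 1.5%. Cks1b, a subunit of cyclin-dependent kinase complexes, had the most counts of these, and stood at 11.0 TPM in replicate 2 against 6.31 TPM in replicate 1. On counts Ccnf was within counting error, with a ratio of library shares of 0.864 (0.666 to 1.12). The counting intervals of Pbk, Cks1b and Cdca3 lay above 1.

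The list of other inhibitors and regulators had a median of 7.93 TPM, below the 11.3 TPM of inhibitors and pocket proteins among the 44 genes. Its highest gene stood above all of those. Cdkn1c, which encodes p57, was at 196 TPM in replicate 2 against 223 TPM in replicate 1, above Ccnd3 in both. Btg1, an antiproliferative gene, was at 39.7 TPM in replicate 2 against 29.0 TPM in replicate 1, and Ccng1, a p53 target, at 21.3 TPM in replicate 2 against 23.0 TPM in replicate 1. Of the 22 genes of that list 19 were detected. Cdkn1a, which encodes p21, had the largest ratio between libraries among the pathway genes with enough counts, at 6.71 TPM in replicate 2 against 14.8 TPM in replicate 1, a log2 ratio of -1.13. Of 17 other genes of the E2F, DREAM and MYB families 14 were detected, with a median of 4.05 TPM over the 17. None of the 14 with enough counts was past 1.5-fold. Mybl2, with too few counts, was at 0.60 TPM in replicate 2 against 0.95 TPM in replicate 1. Rbbp4, a histone chaperone that is also a subunit of the MuvB core, was at 44.6 TPM in replicate 2 against 44.9 TPM in replicate 1. Tfdp2, a dimer partner of E2F, followed at 24.3 TPM in replicate 2 against 20.6 TPM in replicate 1, and Myc at 22.3 TPM in replicate 2 against 20.9 TPM in replicate 1.

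The 44 genes have 239 annotated transcripts, from 1 for Ccnb2 to 21 for Ccnd3. The transcript with the highest level was annotated as protein-coding in 40 of the 44 genes. The 38 genes that were detected and had 2 or more transcripts gave a median of 90.6% of their TPM in protein-coding transcripts, against 91.2% over 10662 genes chosen in the same way, and 19 of the 38 gave 90% or more, against 52.5% of the 10662. The 4 genes whose highest transcript was not protein-coding were Gins2, Tyms, Cdk4 and Ccne2, beside 6.91% of those 10662 genes. Cdk4-209, a retained-intron transcript, held 26.25 TPM in replicate 2 against 23.6 TPM in replicate 1. The coding transcripts of Cdk4 together held 24.7 TPM in replicate 2 against 14.5 TPM in replicate 1, against 6.16 TPM in replicate 2 against 5.26 TPM in replicate 1 for those of Cdk6. In Gins2 the retained-intron transcript Gins2-204 took 74.9% in replicate 2 and 79.3% in replicate 1, which left 0.35 TPM and 0.28 TPM in the coding transcript. In Tyms, Tyms-205, annotated for nonsense-mediated decay, took 50.4% in replicate 2 and 56.0% in replicate 1. When derived from the reads, Tyms-205 took 31.4% in replicate 2 and 43.9% in replicate 1. The coding Tyms-201 then took 31.7% in replicate 2 and 26.4% in replicate 1. The coding share of Tyms was then 52.1% in replicate 2 and 52.2% in replicate 1, against 31.1% and 10.8% when derived from alignments. Top2a had a coding share of 57.2% in replicate 2 and 56.8% in replicate 1, the rest in processed transcripts.

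These noncoding transcripts are short and lie mostly within coding exons. Of the 468 bases of Cdk4-209, 443 are also in exons of coding Cdk4 transcripts, as are 495 of 511 bases of Gins2-204 and all 618 bases of Tyms-205. The tables' division of reads between such overlapping transcripts is an estimate. Cdk4-209 rested on 375 expected counts in replicate 2 and 315 in replicate 1, Tyms-205 on 65.7 and 72.6, and Gins2-204 on 40.0 and 26.2. None of the 3 shares exon bases with a gene on the opposite strand. In Mcm2, when derived from alignments, the libraries were apart in a short decay transcript and close in the coding one. Its coding transcript held 8.10 TPM in replicate 2 against 8.00 TPM in replicate 1. Mcm2-203, a decay transcript of 273 bases, held 0.37 TPM in replicate 2 against 1.91 TPM in replicate 1. When derived from the reads, Mcm2-203 was at 0 TPM in both libraries. The retained-intron transcript Mcm2-202 was then at 0 TPM in replicate 2 against 4.16 TPM in replicate 1. The ratio of count shares of the gene was 0.996 (0.911 to 1.09).

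**Figure D3:**
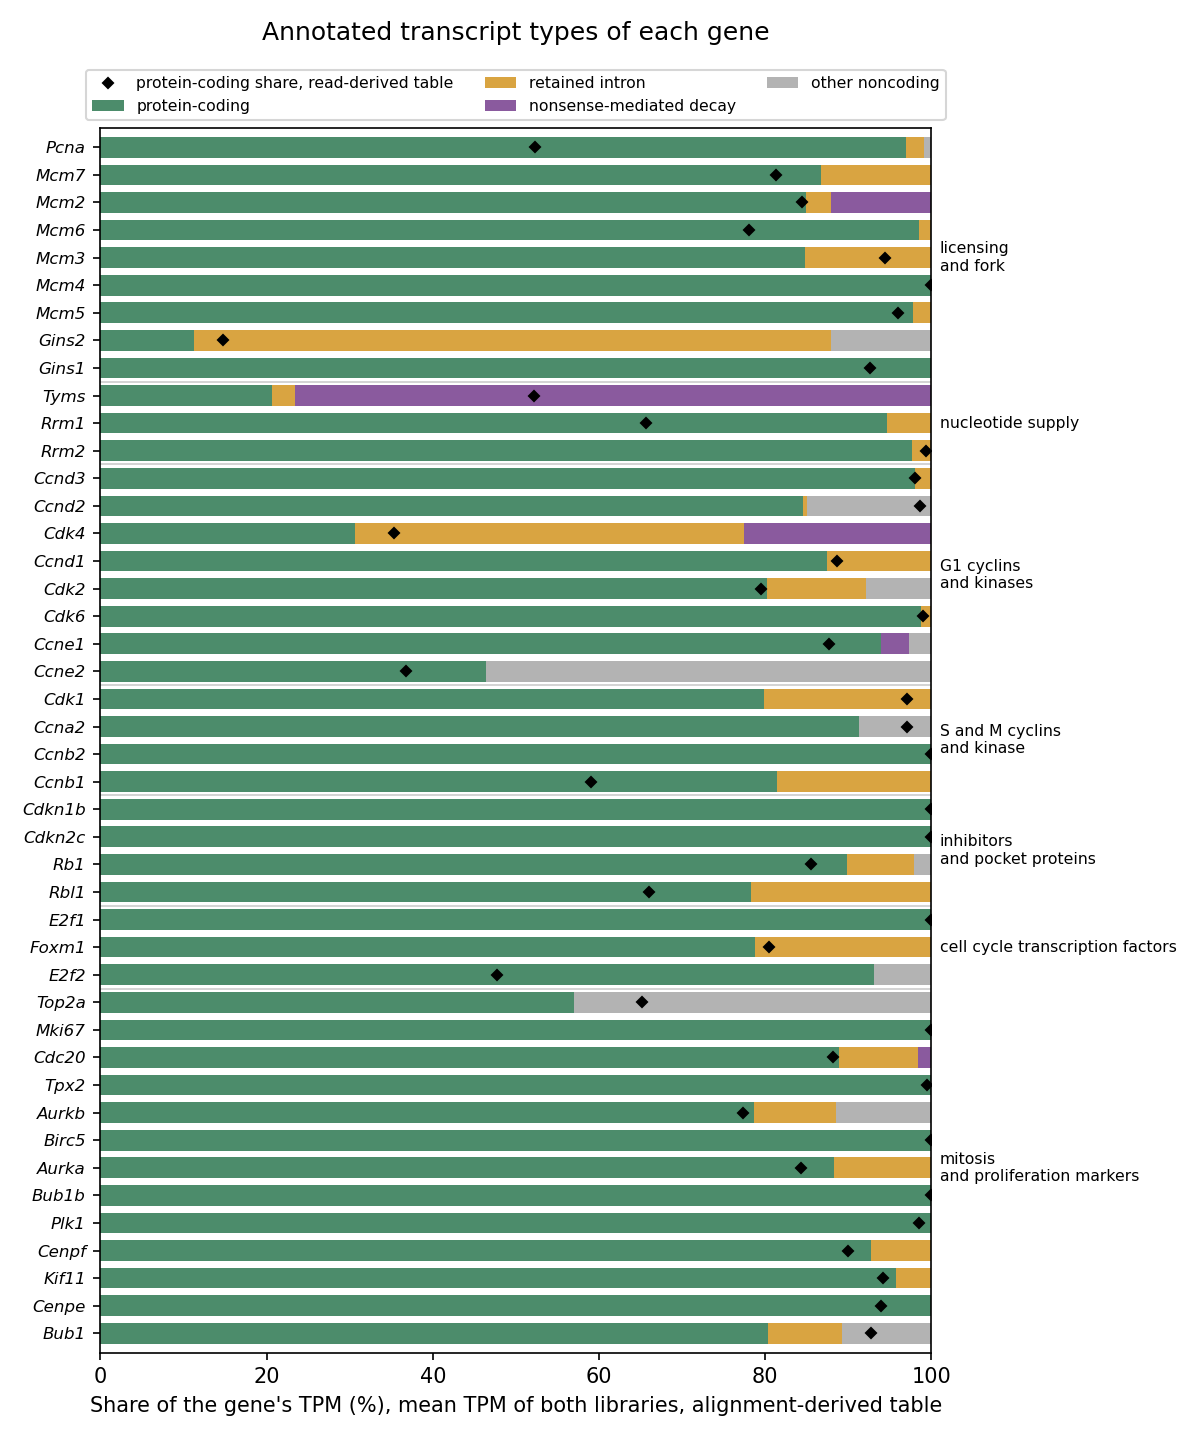
Share of each gene's TPM (%) by annotated transcript type in the alignment-derived table, from the mean TPM of both libraries, with genes grouped by role. Diamonds give the protein-coding share in the read-derived table. Gins2, Tyms, Cdk4 and Ccne2 have the shortest coding bars, at 11.3%, 20.6%, 30.6% and 46.4%, and the diamond of Pcna lies far left of the end of its coding bar.

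The tables allow a second reading of each gene, because transcripts were also quantified straight from the reads. The read-derived level was higher than the alignment-derived level for most genes, with a median log2 difference of 0.78 (1.72-fold) over 12275 genes and 0.74 over the 36 genes with enough counts. At 1.5-fold or more, 33 of the 36 were higher, against 86.2% of all genes. Relative to the median of all genes, a measure added after the data were seen, 1 of the 36 was 1.5-fold or more higher, against 4.48% of all genes, and none was lower by as much, against 3.75%. That gene was E2f2, with 1.07 TPM in replicate 2 against 4.41 TPM in replicate 1 when derived from the reads, against 0.71 TPM in replicate 2 against 0.90 TPM in replicate 1 in the gene table. Its transcript E2f2-202, of 426 bases, was at 0 TPM in replicate 2 against 2.86 TPM in replicate 1, on 9.08 estimated counts. Pcna came next, at a log2 difference of 0.55 beyond the median. Its read-derived level was 71.2 TPM in replicate 2 against 69.1 TPM in replicate 1, of which the processed transcript Pcna-203 held 32.6 TPM in replicate 2 against 32.9 TPM in replicate 1. In the alignment-derived table the same transcript was at 0.48 TPM in replicate 2 and listed at 0 in replicate 1. The coding transcript Pcna-201 thus held 53.7% of the gene in replicate 2 and 50.8% in replicate 1 when derived from the reads, against 96.7% and 97.4% when derived from alignments. Rrm1 was at 17.1 TPM in replicate 2 against 12.0 TPM in replicate 1 when derived from the reads, and its decay transcript Rrm1-206 at 3.63 TPM in replicate 2 and at 0 in replicate 1.

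**Figure D4:**
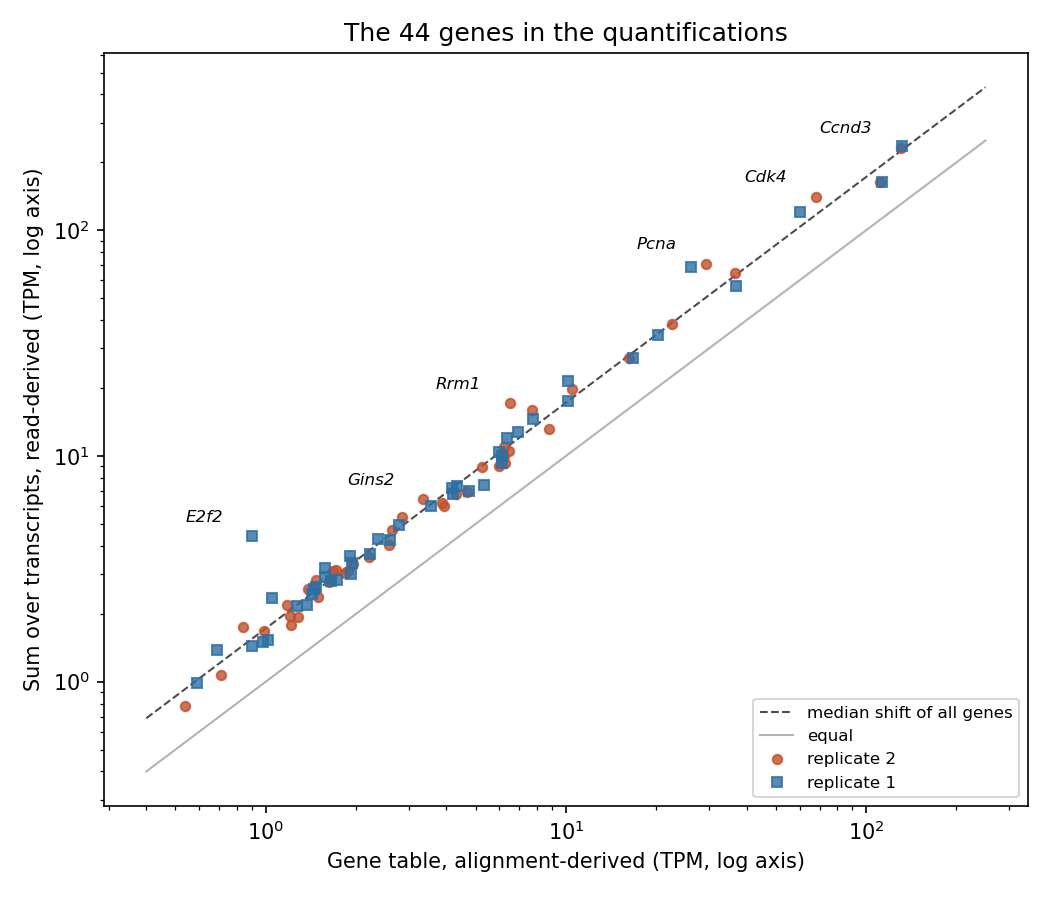
Read-derived against alignment-derived level (TPM, both axes log) of the 44 genes, with replicate 2 as circles and replicate 1 as squares. The dashed line is the median shift of all genes, 1.72-fold, and the grey line equality. Most points follow the dashed line, whereas E2f2 in replicate 1 and Pcna in both libraries lie above it.

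When derived from alignments, the main transcript was the same in both libraries for 41 of the 44 genes, the exceptions being Ccne2, Cdk2 and Tpx2. When derived from the reads, the exceptions between libraries were Tyms, E2f2 and Tpx2. On mean level the main transcript was the same in both quantifications for 40 genes, and Ccnd3 was among the exceptions. It was the same in all 4 tables for 37. These counts have no share over all genes beside them, so they are not set against other genes. Ccnd3-205 held 95% of the gene in replicate 2 and 94.1% in replicate 1 when derived from alignments, against 23.2% in replicate 2 and 22.9% in replicate 1 when derived from the reads, where the coding transcript Ccnd3-215 led with 32.8% in replicate 2 and 37.5% in replicate 1. The gene sum of Ccnd3 differed from the median shift by a log2 difference of 0.05. In Cdk2 and Tpx2 the transcripts that led in each library were all protein-coding.

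On the genome, 21 of the 44 genes overlap another annotated gene, and 9 overlap a gene on the opposite strand that reached 1 TPM in both libraries. Whether the counting used strand is not given in the sources used here, so the levels of these 9 are less certain. Cdk4 (chr10:127063534-127067920, plus strand, mm10) overlaps Tspan31, at 32.3 TPM in replicate 2 against 32.9 TPM in replicate 1. Cdc20 (chr4:118432901-118437352, minus strand) overlaps Elovl1, at 35.0 TPM in replicate 2 against 33.9 TPM in replicate 1, which is far above Cdc20 itself. Mcm7 (chr5:138164583-138172422, minus strand) overlaps Cops6, at 43.4 TPM in replicate 2 against 44.8 TPM in replicate 1. The others are Ccnd1, Ccnd3, Ccne2, Ccna2, Rb1 and Gins2. Pcna (chr2:132249162-132253314, minus strand) has a processed pseudogene, Pcna-ps2, at 4.37 TPM in replicate 2 against 3.92 TPM in replicate 1, with which it may share reads.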

How the data were processed

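Total RNA-seq of 2 adrenal gland libraries was analysed as 1 group. Per the file headers, an expected count and a TPM are deposited for each gene and for each transcript by alignment, with bounds of the TPM. The deposited bounds were treated as a signal, their level being not given in the sources used here. Per the file headers, a further table derived from the reads gives an estimated count and TPM per transcript. The text beside the deposited files gives mm10 and GENCODE M21. Not given in the sources used here: which aligner and version were run, and whether counting was stranded. The authors' expected counts can be fractions, since reads that fit several genes are divided, and were rounded for intervals. TPM are scaled to all entries, so abundant small RNAs lower the TPM of protein-coding genes. Spike-ins and tRNA entries were left out of gene counts.

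Symbols came from the transcript identifiers, and coordinates and transcript types from GENCODE M21. Detected means 1 TPM or more in both libraries. The ratio of replicate 2 over replicate 1 is log2((TPM + 0.1)/(TPM + 0.1)) for genes with 200 or more summed counts, and 1.5-fold was the threshold, with no p-value. Exact 95% Clopper-Pearson intervals of the ratio of count shares were tested on simulated data. They cover counting error only, as the reads carry no stated molecular identifiers, and a count of 0 allows 3 counts. Python 3.11.15 with numpy 2.4.6, pandas 2.3.3, scipy 1.17.1 and matplotlib 3.10.9 was used, and R 4.3.3 with edgeR 4.0.16 (TMM) and DESeq2 1.42.0 (size factors) for alternative scalings over genes with 10 or more counts. Other pseudocounts, filters, thresholds, scalings, the read-derived table and single libraries were tried. Promoters were taken from RefSeq (GRCm38.p6).

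The members and lists were chosen with earlier results of these data known. All 44 members were described by role. From each pathway list the 3 genes highest by mean TPM and those 2-fold or more apart were named, and from marker lists the highest or those 2-fold apart. Pbk, Cks1b, Cdca3 and Ccnf were named after their values were seen.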

Additional observations from a re-analysis of the deposited data

How the results depend on the processing

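Of the 44 genes, 39 were detected at 1 TPM and 25 at 2 TPM, and the median level of 2.75 TPM became 4.93 TPM with read-derived gene sums, 8.81 TPM with TPM scaled to nuclear protein-coding genes, and 2.68 to 3.10 TPM when a library was left out. No gene was 1.5-fold apart between the libraries on TPM, and 1 was (E2f2, lower in replicate 2) with edgeR TMM scaling, with DESeq2 size factors and with read-derived gene sums. The 33 genes 1.5-fold apart between the quantifications became 19 with TPM + 1, 4 at 2-fold, 1 relative to the median of all genes (an alternative chosen after seeing the data), and 31 to 32 when a library was left out. The causes were not tested. The median ratio between libraries stayed between 0.04 and 0.06 in log2 under every alternative run, and the main transcript was protein-coding in 39 to 41. The 9 genes apart beyond counting error were 9 with edgeR TMM, where Ccnd3 entered and Cenpe left, and 8 with read-derived gene sums, where Ccnd3 entered and Cenpe and Pcna left. With 2 libraries of 1 group there is no estimate of variation between animals, and depth limits the 8 genes with under 200 summed counts, whose counting intervals are wide. No paired analysis was possible because the series has 1 group.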
